A study of Homo sapiens with 18 samples.

Results

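The proteasome is the large protease that breaks down proteins tagged with ubiquitin, and the genes described here encode its subunits, its assembly factors and 1 inhibitor. They were taken as the array probes with a single gene symbol that begins with PSMA, PSMB, PSMC, PSMD, PSMF or PSMG followed by a number, without the immunoproteasome genes PSMB8, PSMB9 and PSMB10 and without pseudogenes. This gave 57 of 47217 probes, for 37 genes. Of these, 49 probes for 34 genes were detected on at least 3 arrays and were tested, among 19455 tested probes and 11130 tested genes. PSMA8, PSMB11 and PSMF1 were not tested. PSMA8 and PSMF1, the inhibitor, were detected on 0 of 18 arrays, and PSMB11 on 1. PSMA7, PSMC5, PSMD7 and PSMD13 were not analysed here.

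The sample titles name T cells and monocytes, and the study states that these were 2 human cell lines. They are Jurkat, which stems from a leukemia of T cells, and THP1, which stems from one of monocytes. Jurkat GO, Jurkat GONH2, THP1 labelled GO and THP1 labelled GONH2 cells received graphene oxide (GO) or graphene oxide carrying amino groups (GONH2) at 50 µg/ml for 24 h, and Jurkat CTRL and THP1 CTRL cells were left untreated. Each of these 6 groups had 3 samples, numbered in their titles and each read on its own array. The study describes its experiments as biological and technical triplicates, and the titles do not say which kind these samples are. The p-values measure the spread between these samples. Levels are given as log2 intensity after background correction and quantile normalization, and changes as log2 fold changes with the standard error (SE) of the fit. A gene was counted as higher or lower where limma gave a p under 0.001 that also stayed under 0.05 after Benjamini-Hochberg adjustment across the 19455 probes.

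The labels carry doubts that bear on the results of both lines. One concerns the treated THP1 arrays. The published gene table for monocytes and GO covers 10 of the proteasome probes, and for 10 of the 10 its treated mean was that of the THP1 arrays labelled GONH2 (within 0.005 on the log2 scale), for 0 that of the THP1 arrays labelled GO. Its control means equalled those of THP1 CTRL for 10 of 10. For Jurkat and GO, 8 of 8 treated means matched the Jurkat GO arrays. The GONH2 tables cover 6 probes for Jurkat and 2 for THP1, and 0 of their treated means matched either treated group. The control means of the Jurkat GONH2 table matched Jurkat CTRL for 0 of 6 as well, those of the THP1 GONH2 table for 2 of 2. The GONH2 tables therefore could not serve to check the labels, and the Jurkat GONH2 label stayed unchecked. For the THP1 arrays labelled GONH2, the match with the published GO table goes against the label. The THP1 treated groups are called labelled GO and labelled GONH2 throughout. The other doubt concerns the identity of the Jurkat cultures. All 3 Jurkat CTRL arrays detected 6 of 18 measured T-cell markers, and all 3 THP1 CTRL arrays detected 1. CD3E, CD3G, CD5, CD6, CD28, ZAP70, GATA3 and CD27 were detected on 0 Jurkat CTRL arrays, while 17 of 21 myeloid markers were detected on all 3, against 19 on all 3 THP1 CTRL arrays. The neutrophil elastase gene ELANE averaged 13.6 in Jurkat CTRL and 14.5 in THP1 CTRL (log2 intensity), and CEBPA, a regulator of myeloid cells, 12.3 and 12.5. CD3D, a subunit of the T-cell receptor complex, averaged 7.86 in Jurkat CTRL and 4.39 in THP1 CTRL. These marker levels go against the name Jurkat, although some T-cell genes were higher there. Jurkat and THP1 therefore stand for the arrays titled T cells and monocytes in what follows, and what the Jurkat cultures held was not tested. Between 15761 and 17809 probes were detected per array, and the lowest correlation within a group was 0.987.

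In the cell, the proteolytic 20S core is a barrel of stacked rings of alpha subunits (PSMA genes) and beta subunits (PSMB genes), and PSMB5, PSMB6 and PSMB7 encode its catalytic sites. The 19S regulatory particle caps the barrel: its base holds the ATPases (PSMC genes) that unfold substrates and the scaffold and ubiquitin-binding subunits PSMD1, PSMD2 and PSMD4, and its lid holds the deubiquitinase PSMD14. Chaperones build both pieces, PSMG1 to PSMG4 the core and PSMD5, PSMD9 and PSMD10 the base. Cells are known to raise proteasome genes together when proteasome activity is blocked, through the transcription factor NFE2L1.

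In Jurkat GO, the genes among the 34 that were called lower encode subunits of the 20S core and assembly factors. None of the 14 tested genes of the regulatory particle was called lower under the rule used here. At an adjusted p under 0.05 alone in limma, 5 of the 14 were lower, beside 2198 of all 11130 tested genes. SEM1, a lid subunit that the symbols leave out, fell (log2 fold change -2.95, SE 0.14). Of 34 genes, 9 fell and 1 rose in Jurkat GO against Jurkat CTRL, where 11.1% of all tested genes fell and 15.9% rose. By class, 6 of 13 core genes fell, 3 of 7 assembly factors fell, 0 of 5 ATPases and 0 of 6 lid genes passed, and 1 of 3 other base genes rose. At an unadjusted p under 0.05, 2 ATPases and 3 lid genes were lower and 1 lid gene was higher. At that p, 22.2% of all tested genes were lower and 35.3% higher. The median change of the 34 genes was -0.33, beside 0.11 for all tested genes. Estimates were below 0 for 31 of the 34 genes, beside 4596 of all 11130 tested genes. Each array reads RNA from a whole culture, so fewer expressing cells and less RNA per cell cannot be told apart.

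The assembly factor gene PSMG4, which encodes a chaperone of the alpha ring, had the largest change. Its log2 intensity was 6.96, 6.58 and 7.07 on the Jurkat GO arrays, against 8.64, 8.64 and 8.61 on the Jurkat CTRL arrays. All 3 GO arrays lay more than 1 unit under every control array, and the log2 fold change was -1.76 (SE 0.14, adjusted p = 5.9e-05), a 3.39-fold fall. Under the alternatives listed below it ran from -1.86 to -1.13. These values rest on 1 probe, as the other PSMG4 probe was detected on 0 arrays and not tested. PSMG1, another chaperone of the alpha ring, read 10.40, 10.07 and 10.29 in Jurkat GO, against 10.85, 10.83 and 10.83 in Jurkat CTRL, and fell as well (-0.59, SE 0.11, adjusted p = 0.00355). PSMG2, the partner of PSMG1, read 11.71, 11.40 and 11.59 in Jurkat GO and 11.95, 11.89 and 11.95 in Jurkat CTRL (-0.37, SE 0.11), and PSMG3, the partner of PSMG4, read 7.19, 7.03 and 7.04 in Jurkat GO and 7.34, 7.63 and 7.31 in Jurkat CTRL (-0.34, SE 0.12). The arrays of PSMG2 and PSMG3 did not overlap between the groups, but neither gene passed. PSMD10, a chaperone of the ATPase ring also known as gankyrin, fell with no overlap between the groups. It read 9.84, 9.78 and 9.97 in Jurkat GO, against 10.83, 10.69 and 10.80 in Jurkat CTRL (-0.91, SE 0.10, adjusted p = 0.000285).

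In the alpha ring PSMA2 had the largest fall, with 7.22, 7.31 and 7.61 in Jurkat GO, against 8.38, 8.40 and 8.42 in Jurkat CTRL (-1.02, SE 0.12, adjusted p = 0.000384). PSMA3 (-0.87, SE 0.11) and PSMA4 (-0.66, SE 0.10), both structural alpha subunits, fell too. PSMA1, PSMA5 and PSMA6 had changes of -0.10, -0.43 and -0.48 and did not pass.

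The 3 catalytic subunits did not share 1 pattern. PSMB7, with the trypsin-like site, read 10.44, 10.33 and 10.41 in Jurkat GO, against 11.32, 11.50 and 11.32 in Jurkat CTRL, a fall of 1.98-fold (log2 fold change -0.99, SE 0.10, adjusted p = 0.000173). PSMB6, with the caspase-like site, read 11.46, 11.35 and 11.39 in Jurkat GO and 12.02, 12.00 and 11.94 in Jurkat CTRL, and fell by a smaller amount (-0.58, SE 0.09, adjusted p = 0.00145). PSMB5, with the chymotrypsin-like site, read 10.87, 10.87 and 11.03 in Jurkat GO and 11.19, 11.15 and 10.89 in Jurkat CTRL, so that the groups overlapped (-0.15, SE 0.12, adjusted p = 0.319). The structural subunit PSMB3 read 11.07, 11.04 and 11.30 in Jurkat GO, against 12.14, 12.08 and 11.99 in Jurkat CTRL (-0.93, SE 0.11, adjusted p = 0.000358). PSMB1, PSMB2 and PSMB4 had changes between -0.26 and -0.22 and did not pass.

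In the regulatory particle, PSMD2, a scaffold subunit of the base that docks ubiquitin-like proteins, was the 1 gene that rose. It read 11.27, 11.38 and 11.06 in Jurkat GO, against 10.58, 10.55 and 10.56 in Jurkat CTRL (0.67, SE 0.11, adjusted p = 0.00179). PSMD14 read 10.42, 10.17 and 10.44 in Jurkat GO and 10.68, 10.76 and 10.80 in Jurkat CTRL (-0.40, SE 0.11, adjusted p = 0.0186), lower on every GO array without passing. PSMD4, a ubiquitin receptor, read 12.96, 13.14 and 13.06 in Jurkat GO and 13.14, 13.09 and 12.98 in Jurkat CTRL, with overlapping groups (-0.02, SE 0.10). The 5 ATPase genes changed by -0.51 (PSMC2) to -0.11 (PSMC3).

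On each Jurkat GO array the core genes lay further below the controls, by their median, than the cap genes, counted without SEM1. The median deviation of the 13 core genes from the Jurkat CTRL means was -0.48, -0.60 and -0.47 on the 3 Jurkat GO arrays, while that of the 14 genes of the 19S particle was -0.24, -0.19 and -0.11. All tested genes had medians of 0.11, 0.11 and 0.12 on the same arrays. Both classes thus lay under all tested genes. The difference between the classes was not tested, and these are the same arrays that gave the calls. With each array scaled to its median, the median of the 34 was -0.56, beside 0.14 for all tested genes. The share of all tested genes called under this scaling was not computed. Under it, 0 of the 34 genes rose and 17 fell, so the call of PSMD2 depends on the normalization. That call was also lost without Jurkat GO replicate 1 or 2 or any 1 control array, and those of PSMB6 and PSMG1 without Jurkat GO replicate 2 or 3 or any 1 control array. Without Jurkat GO replicate 2, or without Jurkat CTRL replicate 1, 2 or 3, 6 genes were called each time.

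**Figure D1:**
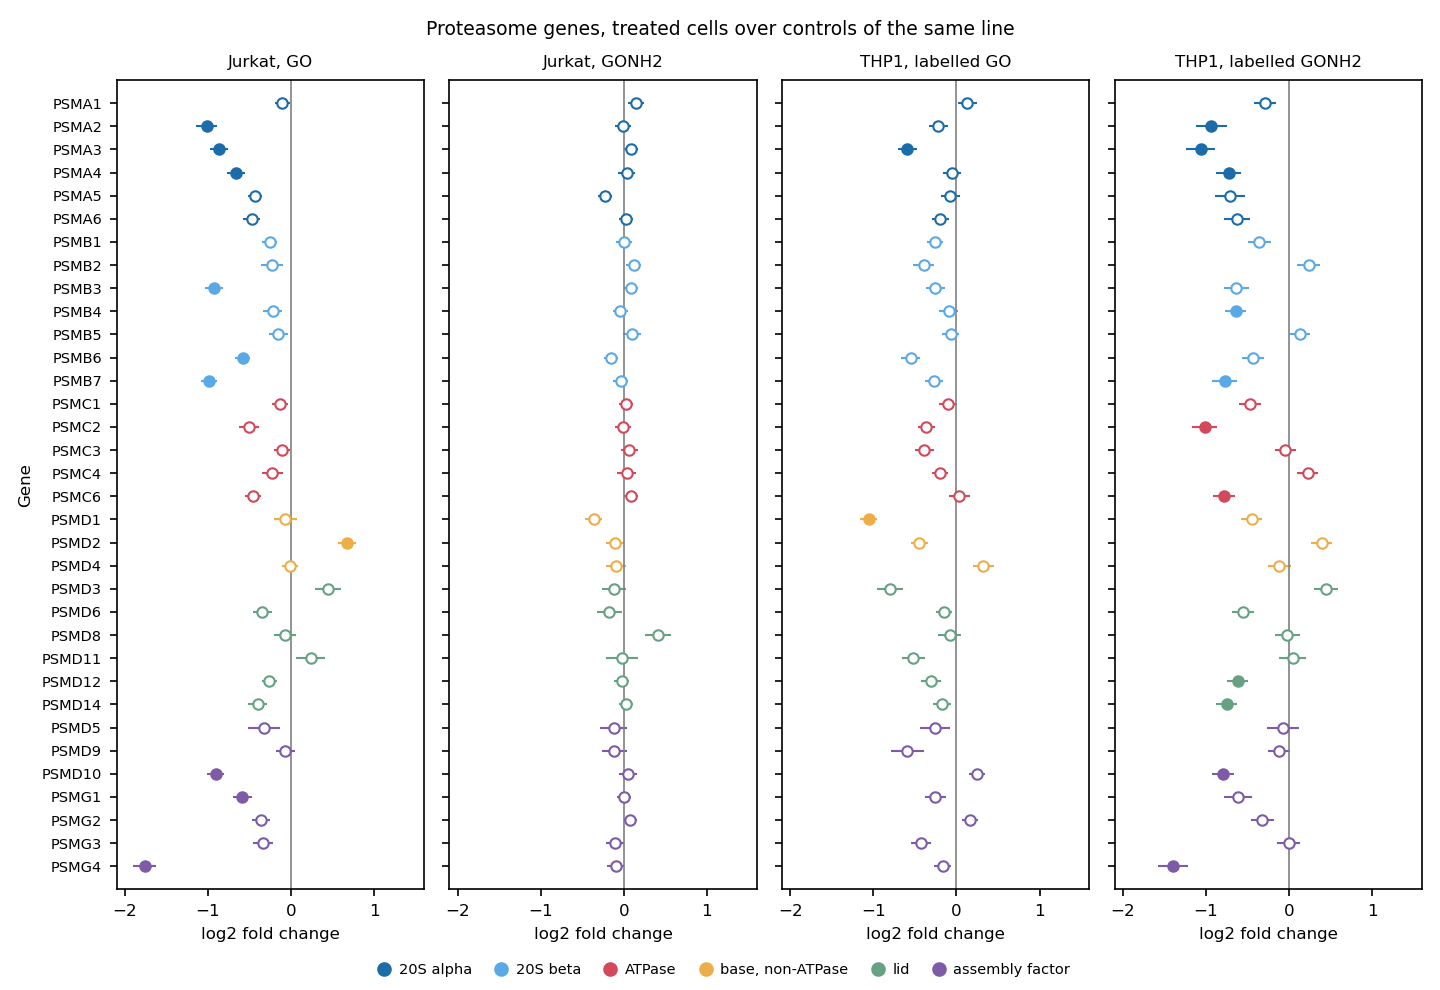
Log2 fold change (x axis) of each of 34 tested proteasome genes (y axis, by class), treated cells over untreated cells of the same line, with bars for the SE of the fit (3 arrays per group). Filled points passed the test: 10 in Jurkat GO, 0 in Jurkat GONH2, 2 in THP1 labelled GO and 11 in THP1 labelled GONH2, with PSMG4 the lowest point in the first and last panels.

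Because 6 genes fell both in Jurkat GO and in THP1 labelled GONH2, the stretch before the start site of some of them is shown beside that of PSMD2, which rose. The stretches are the 120 bases upstream of the start in RefSeq's promoter windows (GRCh38.p14), 5′ to 3′ on the gene's strand: PSMG4 from chr6:3258827-3258946 (plus strand), PSMA2 from chr7:42932175-42932294 (minus), PSMA3 from chr14:58244723-58244842 (plus), PSMD10 from chrX:108091543-108091662 (minus) and PSMD2 from chr3:184299121-184299240 (plus, the first of 2 windows). Capitals mark the letters of 5 motifs searched on both strands, the antioxidant response element core TGACNNNGC, to which NFE2L1 and its relatives bind, the NRF1 motif, the ETS motif CCGGAAG, the CCAAT box CCAAT and the Sp1 motif GGGCGG. In PSMG4 an Sp1 and an ETS match overlap.
PSMG4: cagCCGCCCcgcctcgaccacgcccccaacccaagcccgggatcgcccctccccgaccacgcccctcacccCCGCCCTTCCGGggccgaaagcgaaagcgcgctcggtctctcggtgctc
PSMA2: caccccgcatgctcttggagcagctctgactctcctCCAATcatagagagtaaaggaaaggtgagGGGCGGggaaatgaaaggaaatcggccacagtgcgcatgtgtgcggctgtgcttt
PSMA3: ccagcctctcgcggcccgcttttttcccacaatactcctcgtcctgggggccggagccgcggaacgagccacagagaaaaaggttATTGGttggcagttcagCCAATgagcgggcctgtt
PSMD10: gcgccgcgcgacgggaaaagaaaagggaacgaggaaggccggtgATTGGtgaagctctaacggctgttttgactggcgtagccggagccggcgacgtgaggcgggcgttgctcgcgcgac
PSMD2: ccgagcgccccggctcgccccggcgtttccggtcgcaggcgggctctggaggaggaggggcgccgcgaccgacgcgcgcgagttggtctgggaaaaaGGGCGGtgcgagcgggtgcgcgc

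The whole windows, 250 bases before to 50 after the start, were at hand for 29 of the 34 genes (35 windows), with PSMB1, PSMB6, PSMB7, PSMD4 and PSMG3 among those not analysed here for sequence. The antioxidant response element core was in 28.6% of the 35 member windows and in 13.3% of all 35116 windows, the NRF1 motif in 17.1% and 5.78%, the ETS motif in 28.6% and 10.3%, the CCAAT box in 42.9% and 34.6% and the Sp1 motif in 65.7% and 45% of them. Of the 9 genes that fell in Jurkat GO, 7 had a window. The CCAAT box was in 6 of these 7 genes and in 9 of the 22 others, the antioxidant response element core in 3 and 7, the NRF1 motif in 1 and 3, the ETS motif in 1 and 9 and the Sp1 motif in 5 and 14. A match is a description of letters and not of a bound site.

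After GONH2, few genes of any kind were called in Jurkat cultures. In Jurkat GONH2 against Jurkat CTRL, 0 of 34 genes were called higher or lower by limma, where 0.395% of all tested genes were higher and 0.368% lower, so that nothing particular to these genes can be read from the count. Without adjustment, 1 gene was higher and 2 were lower at p under 0.05, where 8.1% of all tested genes were higher and 10.1% lower. Limma with an intensity trend, no background correction and the authors' normalized values each called 1 gene lower. The median change was 0.00, beside -0.02 for all tested genes. The largest estimates were 0.41 (SE 0.16) for PSMD8, a lid subunit, and -0.36 (SE 0.10) for PSMD1. PSMG4, which fell most after GO, read 8.67, 8.37 and 8.57 in Jurkat GONH2, within 0.3 of the controls (-0.10, SE 0.10, adjusted p = 0.65). Of the catalytic genes, PSMB5 read 11.21, 11.18 and 11.11, PSMB6 read 11.86, 11.82 and 11.79, and PSMB7 read 11.35, 11.36 and 11.32 on the Jurkat GONH2 arrays. PSMD14 read 10.70, 10.78 and 10.83 there, PSMD4 12.75, 13.09 and 13.09, PSMG1 10.81, 10.78 and 10.93, PSMG2 12.01, 11.97 and 12.05, and PSMG3 7.29, 7.38 and 7.28.

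Set directly against GO, 5 of the 13 core genes were higher after the amino-functionalized material in Jurkat cultures. In Jurkat GONH2 against Jurkat GO, 8 of 34 genes were higher and 1 was lower, where 10.1% of all tested genes were higher and 15.7% lower. The higher ones were PSMA2, PSMA3 and PSMA4, PSMB3 and PSMB7, the ATPase gene PSMC6, PSMD10 and PSMG4, and the lower one was PSMD2. These counts use the brightest probe of a gene. A dimmer probe was called higher for PSMA1 (0.96), PSMA6 (0.80), PSMC1 (0.66) and PSMG1 (0.74), so the count depends on the choice of probe. The median difference of the 34 genes was 0.26, beside -0.12 for all tested genes. This comparison uses the same GO arrays as the one against controls, so the 2 are not independent. PSMG4 differed by 1.66 (SE 0.16, adjusted p = 9.32e-05), a 3.17-fold excess after GONH2, and PSMB3, with 12.19, 12.11 and 12.16 in Jurkat GONH2 against 11.07, 11.04 and 11.30 in Jurkat GO, by 1.02 (SE 0.11, adjusted p = 0.000225). PSMA2 had 8.27, 8.38 and 8.53 in Jurkat GONH2 and 7.22, 7.31 and 7.61 in Jurkat GO (1.01, SE 0.14). PSMC6 had 11.58, 11.65 and 11.54 in Jurkat GONH2 and 10.97, 11.03 and 11.14 in Jurkat GO (0.55, SE 0.11, adjusted p = 0.00357), a call lost without any 1 of the 6 arrays. On the mean of its probes the difference was 0.26 (adjusted p = 0.141), and its dimmer probe differed by -0.03. PSMD2 had 10.53, 10.57 and 10.26 in Jurkat GONH2, all under the 11.27, 11.38 and 11.06 of Jurkat GO (-0.78, SE 0.14, adjusted p = 0.002), a call lost without Jurkat GONH2 replicate 1 or 3 or Jurkat GO replicate 1 or 2 and under median scaling. With arrays scaled to their medians 15 of the 34 genes were higher and 0 lower, and the share over all tested genes was not computed there.

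**Figure D2:**
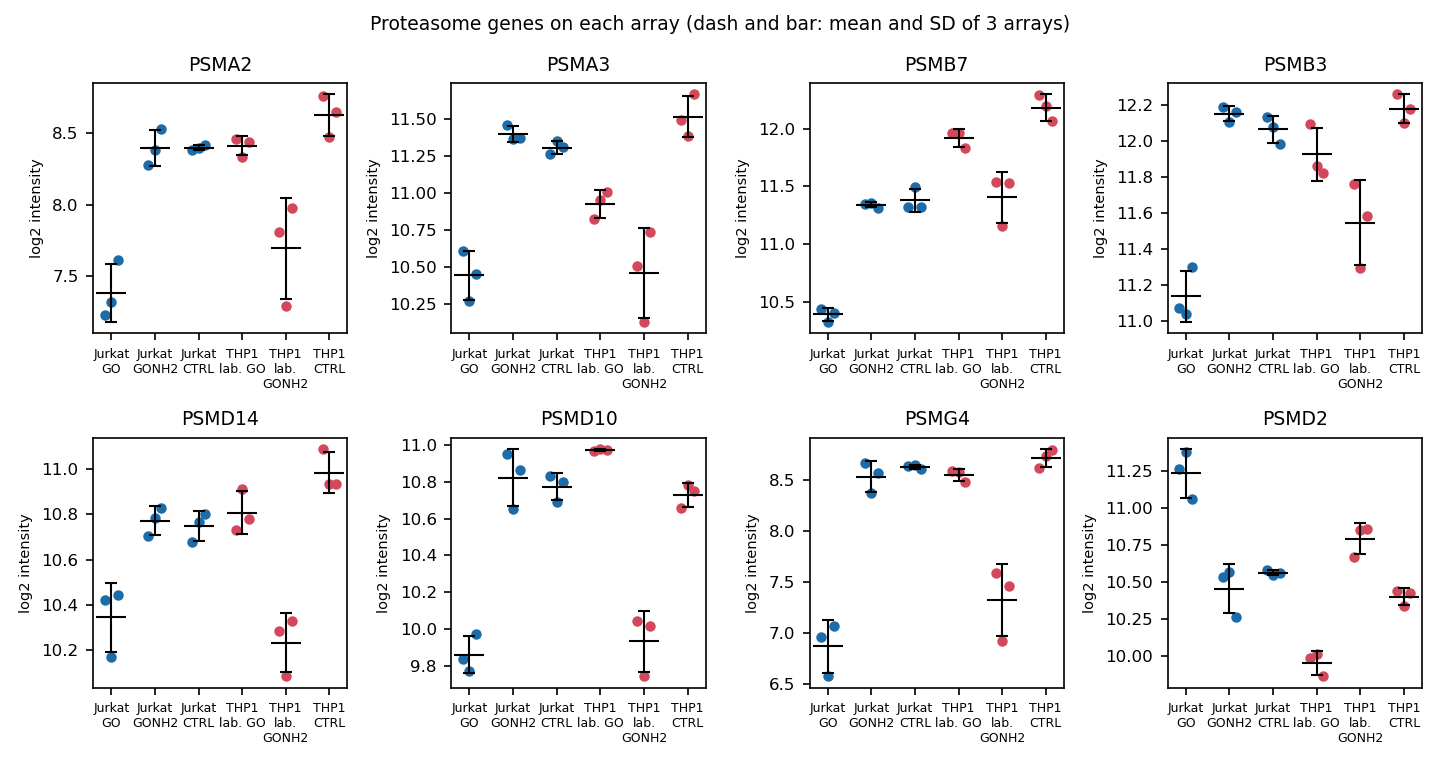
Log2 intensity (y axis, a separate scale in each panel) of 8 proteasome genes on each of the 18 arrays, by group (x axis; THP1 groups by their labels), with the mean and SD of 3 arrays. PSMG4 lies between 6.58 and 7.07 on the Jurkat GO arrays and between 6.93 and 7.59 on the THP1 arrays labelled GONH2, and at 8.37 or above on the other 12.

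On THP1 arrays labelled GO, PSMD1 and PSMA3 were lower. Against THP1 CTRL, 2 of 34 genes were lower and 0 higher, where 4.73% of all tested genes were lower and 4.36% higher. The count is near this background. At an unadjusted p under 0.05, 14 of 34 were lower and 2 higher, where 21% of all tested genes were lower and 17.8% higher, and the median was -0.23, beside -0.02 for all tested genes. PSMD1, the other large scaffold subunit of the base, read 8.69, 8.53 and 8.64 on arrays labelled GO, against 9.78, 9.62 and 9.63 in THP1 CTRL, and fell 2.08-fold (log2 fold change -1.06, SE 0.10, adjusted p = 0.00142). PSMA3 read 10.82, 10.95 and 11.01 on arrays labelled GO and 11.50, 11.39 and 11.67 in THP1 CTRL (-0.59, SE 0.12, adjusted p = 0.0122), a call lost without any 1 of the 6 arrays. Without THP1 labelled GO replicate 2 or 3, or without THP1 CTRL replicate 1, the count was 1.

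Of the genes that fell in Jurkat GO, all but PSMA3 missed the test on these arrays, each by its brightest probe. The dimmer PSMA3 probe was not called by limma (-0.47, SE 0.14, adjusted p = 0.0522). PSMD10 was above 0 here (0.24, SE 0.10), and its dimmest probe was called higher by limma (0.57, SE 0.11, adjusted p = 0.0105). PSMG4 read 8.59, 8.58 and 8.48 on THP1 arrays labelled GO, against 8.62, 8.74 and 8.79 in THP1 CTRL (-0.17, SE 0.10, adjusted p = 0.275). PSMB7 read 11.96, 11.96 and 11.83 on arrays labelled GO, against 12.29, 12.20 and 12.06 in THP1 CTRL (-0.27, SE 0.11). PSMB6, with 11.38, 11.35 and 11.33 against 12.02, 11.96 and 11.74 in THP1 CTRL, missed the call (-0.55, SE 0.11, adjusted p = 0.0132), and PSMB5 read 10.92, 11.08 and 10.88 against 11.11, 10.97 and 11.01 in THP1 CTRL. PSMD14 read 10.73, 10.91 and 10.78 against 11.09, 10.93 and 10.93 in THP1 CTRL. PSMD4 read 12.01, 11.78 and 12.03, above the 11.49, 11.59 and 11.77 of THP1 CTRL without passing (0.32, SE 0.12). Of the core chaperones, PSMG1 read 10.78, 10.72 and 10.79 against 11.27, 10.89 and 10.89 in THP1 CTRL, PSMG2 read 12.04, 12.12 and 12.06 against 11.86, 11.88 and 11.99, and PSMG3 read 6.56, 6.41 and 6.27 against 6.72, 6.92 and 6.88.

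On THP1 arrays labelled GONH2 the falls spread over every class but the scaffold and receptor subunits of the base. Against THP1 CTRL, 11 of 34 genes fell and 0 rose, where 9.51% of all tested genes fell and 12.4% rose. By class, 5 of 13 core genes, 2 of 5 ATPases and 2 of 6 lid genes fell. Among assembly factors 2 of 7 fell, and among other base genes 0 of 3. Of those 3 base genes, 1 was higher and 1 lower at p under 0.05 before adjustment. At that p, 30.3% of all tested genes were higher and 22.3% lower. The median of the 34 was -0.46, beside 0.08 for all tested genes. PSMG4 again had the largest change, with 7.59, 6.93 and 7.46 on arrays labelled GONH2, against 8.62, 8.74 and 8.79 in THP1 CTRL (-1.39, SE 0.18, adjusted p = 0.000571), a 2.63-fold fall. PSMA3 had 10.51, 10.13 and 10.74 on arrays labelled GONH2, against 11.50, 11.39 and 11.67 in THP1 CTRL (-1.06, SE 0.17, adjusted p = 0.00144), and PSMB7 had 11.54, 11.15 and 11.53, against 12.29, 12.20 and 12.06 (-0.78, SE 0.15, adjusted p = 0.00322).

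Of the ATPases, PSMC2 had 10.57, 10.25 and 10.71 on THP1 arrays labelled GONH2, against 11.63, 11.42 and 11.52 in THP1 CTRL, and fell 2.02-fold (log2 fold change -1.01, SE 0.15, adjusted p = 0.00101). PSMC6 fell by 0.79 on the log2 scale. In the lid the deubiquitinase gene PSMD14 had 10.28, 10.08 and 10.33 on arrays labelled GONH2, against 11.09, 10.93 and 10.93 in THP1 CTRL (-0.75, SE 0.13, adjusted p = 0.00197), and PSMD12, a structural lid subunit, fell by 0.62. PSMA2 (-0.94, SE 0.19), PSMA4 (-0.73, SE 0.15), PSMB4 (-0.64, SE 0.13) and PSMD10 (-0.79, SE 0.13) completed the 11.

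The remaining fixed genes did not pass on these arrays. PSMB5 read 11.14, 11.21 and 11.14 on THP1 arrays labelled GONH2 and 11.11, 10.97 and 11.01 in THP1 CTRL (0.13, SE 0.12), and PSMB6 read 11.55, 11.46 and 11.39 against 12.02, 11.96 and 11.74 in THP1 CTRL (-0.44, SE 0.13). PSMD4 read 11.65, 11.42 and 11.43, PSMG1 10.47, 10.13 and 10.60, PSMG2 11.70, 11.39 and 11.69, and PSMG3 7.02, 6.71 and 6.79 on arrays labelled GONH2. Replicate 2 of this group read lowest of the 3 in all of these but PSMB5 and PSMB6. The median deviation of the 13 core genes from THP1 CTRL was -0.48, -0.89 and -0.53 on replicates 1, 2 and 3, that of the 14 genes of the 19S particle -0.28, -0.41 and -0.26. Without THP1 CTRL replicate 1, 2 or 3 the count of 11 was 5, 3 or 2, and without THP1 labelled GONH2 replicate 2 or 3 it was 6 or 7. PSMG4 and PSMC2 kept their calls without any 1 array. The call of PSMB7 was lost without replicate 2 or 3 of the arrays labelled GONH2 or any 1 control array, that of PSMD14 without any 1 control array and that of PSMA3 without THP1 CTRL replicate 3.

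Within THP1 cells the treated groups differed from each other in both directions. On arrays labelled GONH2 against arrays labelled GO, 4 of 34 genes were higher and 3 lower, where 17.9% of all tested genes were higher and 12.2% lower, with a median of -0.37 beside 0.07. The higher genes were PSMB2, PSMD1, PSMD2 and PSMD3, and the lower ones PSMC6, PSMD10 and PSMG4. A dimmer probe was called lower for PSMA4 (-0.915), PSMA6 (-0.79) and PSMC1 (-0.59), whose brightest probes were not called. PSMD3, a lid subunit, had 7.91, 8.10 and 7.92 on arrays labelled GONH2, against 6.98, 6.54 and 6.67 on arrays labelled GO (1.25, SE 0.14, adjusted p = 0.000249). PSMD2 had 10.67, 10.85 and 10.86 on arrays labelled GONH2 and 9.98, 10.01 and 9.86 on arrays labelled GO (0.84, SE 0.12, adjusted p = 0.000547). PSMB2, a structural core subunit, had 11.60, 11.66 and 11.56 on arrays labelled GONH2, against 11.02, 10.99 and 10.94 on arrays labelled GO (0.63, SE 0.11), a call lost without THP1 labelled GONH2 replicate 1 or 3 or without any 1 array labelled GO.

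PSMG4 was 2.34-fold lower in THP1 labelled GONH2 than in THP1 labelled GO (-1.23, SE 0.18, adjusted p = 0.000618). PSMC6 had 10.61, 10.46 and 10.69 on arrays labelled GONH2 and 11.22, 11.58 and 11.42 on arrays labelled GO (-0.82, SE 0.14), a call lost on the mean of its probes and without replicate 1 or 2 of the arrays labelled GONH2 or replicate 2 or 3 of those labelled GO, and PSMD10 differed by -1.04 (SE 0.12). Without THP1 labelled GONH2 replicate 1, or without THP1 labelled GO replicate 2 or 3, the count of 7 was 4. In Jurkat cultures the same direct comparison ran the other way for PSMG4, PSMD10, PSMC6 and PSMD2, by the labels.

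**Figure D3:**
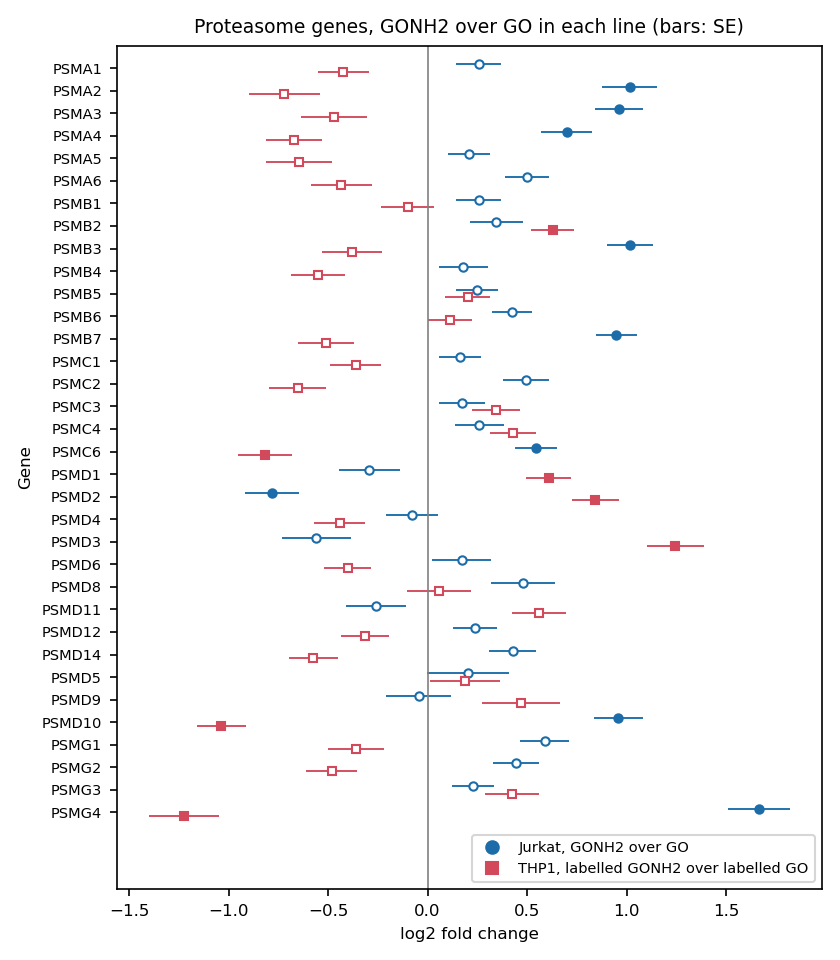
Log2 fold change (x axis, bars are the SE of the fit) of GONH2 over GO for each of 34 proteasome genes (y axis), in Jurkat cultures (circles) and, by the labels, in THP1 cells (squares); filled points passed the test. PSMG4 lies at 1.66 in Jurkat cultures and at -1.23 in THP1 cells.

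Untreated, PSMD4, PSMB4, PSMA5 and PSMB7 differed between the lines. In Jurkat CTRL against THP1 CTRL, 3 of 34 genes were higher and 1 lower, where 7.15% of all tested genes were higher and 6.06% lower, which is near the members' shares, and the median was -0.01 beside 0.01. PSMD4 was 2.73-fold higher in Jurkat CTRL (log2 fold change 1.45, SE 0.11, adjusted p = 0.000135), PSMB4, a structural core subunit, 2.21-fold (1.14, SE 0.09, adjusted p = 0.000145) and PSMA5, an alpha subunit, 1.55-fold (0.63, SE 0.11, adjusted p = 0.00504). PSMB7 was lower in Jurkat CTRL (-0.80, SE 0.11, adjusted p = 0.00172).

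An interaction term over 12 arrays tested whether the cultures named Jurkat and THP1 responded unequally. For GO by the labels, the Jurkat response was higher than that of THP1 in 3 of 34 genes and lower in 6, where 15.4% of all tested genes were higher and 11.1% lower. PSMG4 had the largest difference, -1.60 (SE 0.17, adjusted p = 1.68e-05), followed by PSMD3 with 1.24 (SE 0.23, adjusted p = 0.000994). For GONH2 by the labels, the Jurkat response was higher in 7 genes and lower in 0, where 8.35% of all tested genes were higher and 12.5% lower. Without adjustment, 18 genes were higher and 2 lower at p under 0.05, where 20.2% of all tested genes were higher and 27.5% lower. PSMG4 differed most here too (1.29, SE 0.22, adjusted p = 0.000776).

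With the labels of the THP1 treated arrays exchanged, fewer genes of any kind differed between the lines. The responses to GO then differed in 0 of 34 genes by limma, where 0.332% of all tested genes were higher in Jurkat and 0.288% lower. Before adjustment, 5 of the 34 were higher and 2 lower at p under 0.05, where 8.71% and 7.74% of all tested genes were. The responses to GONH2 differed in 2, both higher in Jurkat, where 2.96% of all tested genes were higher and 3.26% lower. Before adjustment, 10 were higher and 1 lower, where 15.2% and 14.3% of all were. By the labels as given, 6 genes were called lower both in Jurkat GO and in THP1 labelled GONH2. These were PSMA2, PSMA3, PSMA4, PSMB7, PSMD10 and PSMG4, 66.7% of the Jurkat list and 54.5% of the THP1 list. The overlap of calls over all tested genes was not computed. The 2 shares are therefore not read as particular to the proteasome genes. Across the 34 genes, which were read on the same arrays and are not independent, the 2 sets of fold changes had r = 0.82. Across all 11130 tested genes r was 0.853. Of the 34 genes, 28 were below 0 in both sets, beside 3685 of the 11130. The fold changes of Jurkat GO and THP1 labelled GO had r = -0.24 (0.0456 across all tested genes).

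**Figure D4:**
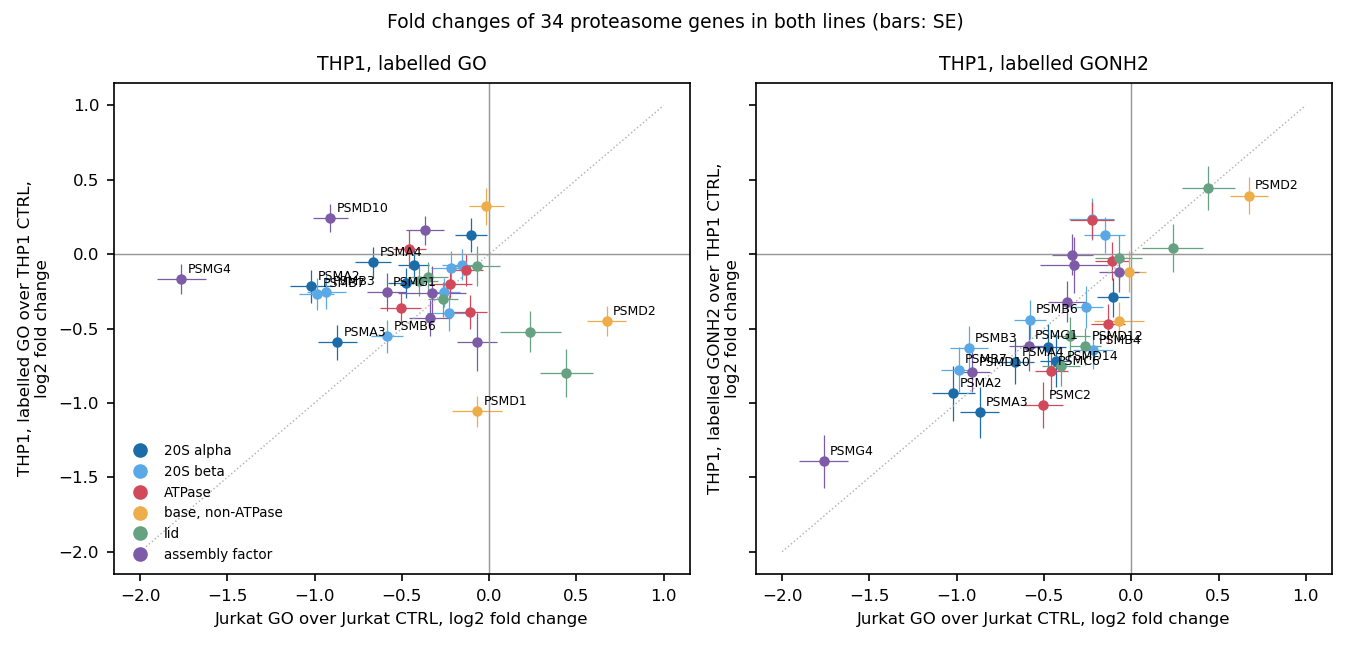
Log2 fold changes of 34 proteasome genes in Jurkat GO (x axis) against those on THP1 arrays labelled GO (left, y axis) and labelled GONH2 (right, y axis), each over the controls of its line, with SE bars and the line of equal change dotted. Genes called in either comparison are named, and PSMG4 stands at -1.76 in Jurkat GO, at -0.17 on arrays labelled GO and at -1.39 on arrays labelled GONH2.

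Among partners of the proteasome that the symbols leave out, SEM1, POMP and PSME2 fell where PSMG4 fell. Of 33 such genes in the list, 28 were tested. In Jurkat GO, 6 were higher and 4 lower, with a median of 0.29, where 15.9% of all tested genes were higher and 11.1% lower with a median of 0.11. Counts of called partners are given as descriptions, and nothing particular to the list is read from them. SEM1, the smallest lid subunit, read 9.32, 9.00 and 9.50 in Jurkat GO, against 12.21, 12.17 and 12.28 in Jurkat CTRL, a log2 fold change of -2.95 (SE 0.14, adjusted p = 9.63e-06). POMP, the maturation factor of the core, read 10.80, 10.49 and 10.73 in Jurkat GO, against 12.20, 12.38 and 12.30 in Jurkat CTRL (-1.62, SE 0.12, adjusted p = 4.02e-05). PSME2, a subunit of the PA28 activator, read 10.51, 10.30 and 10.53 in Jurkat GO, against 12.01, 11.88 and 11.96 in Jurkat CTRL, and fell too (SE 0.10, adjusted p = 3.515e-05). None of these 3 genes had overlapping groups. PSME4, the large single-chain activator PA200, rose by 1.03 (SE 0.11), with 11.04, 11.02 and 10.83 in Jurkat GO against 9.84, 10.07 and 9.90 in Jurkat CTRL.

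In Jurkat GONH2, 0 of these 28 passed in limma (3 higher and 1 lower at p under 0.05 before adjustment, where 8.1% and 10.1% of all tested genes were), where 0.395% of all genes were called higher and 0.368% lower. SEM1 changed by -0.01 (SE 0.09). Directly against Jurkat GO, Jurkat GONH2 had more SEM1 (2.94), POMP (1.64) and PSME2 (1.51) and less UBA1, the enzyme that activates ubiquitin (-1.11, SE 0.12), among 4 higher and 6 lower, where 10.1% and 15.7% of all tested genes were.

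In THP1, arrays labelled GONH2 had 5 of the 28 higher and 3 lower, where 12.4% and 9.51% of all tested genes were. SEM1 read 10.65, 9.64 and 10.16 on arrays labelled GONH2, against 12.09, 12.18 and 12.27 in THP1 CTRL (-2.03, SE 0.23, adjusted p = 0.000367). POMP changed by -1.60 (SE 0.19) and PSME2 by -1.14 (SE 0.16), and UBA1 rose to 12.59, 12.86 and 12.55, against 11.31, 11.31 and 11.52 in THP1 CTRL (1.29, SE 0.14). Arrays labelled GO had 1 higher and 3 lower, where 4.36% and 4.73% of all were. The immunoproteasome gene PSMB9 rose (0.86, SE 0.12, adjusted p = 0.00455), and PSME3, the nuclear activator (-0.86, SE 0.11), ADRM1, a ubiquitin receptor (-0.64, SE 0.10), and the proteasome-bound ligase gene UBE3C (-0.63, SE 0.11) fell. The call of ADRM1 was lost without THP1 labelled GO replicate 2 or 3, and that of UBE3C without any 1 of the 6 arrays. Between the treated THP1 groups 7 were higher and 4 lower on arrays labelled GONH2, where 17.9% and 12.2% of all were, led by SEM1 (-1.96), UBA1 (1.45), PSME3 (1.36) and UBQLN4, a shuttle for ubiquitinated proteins (1.27).

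Between the lines, PSMB9 was higher in Jurkat CTRL than in THP1 CTRL (1.36, SE 0.12), and ECPAS, a proteasome-binding scaffold (-0.62), and the deubiquitinase gene UCHL5 (-0.57) were lower. The call of ECPAS was lost without Jurkat CTRL replicate 1 or 2 and on the mean of its probes (-0.25, adjusted p = 0.2147), and that of UCHL5 without any 1 array but THP1 CTRL replicate 1. The responses to GO by the labels differed most for SEM1 (-2.87, SE 0.17), PSMB9 (-1.87), PSME3 (1.34) and PSME2 (-1.29), and those to GONH2 for SEM1 (2.02, SE 0.27), POMP (1.62), UBA1 (-1.38) and PSME2 (1.15).

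**Figure D5:**
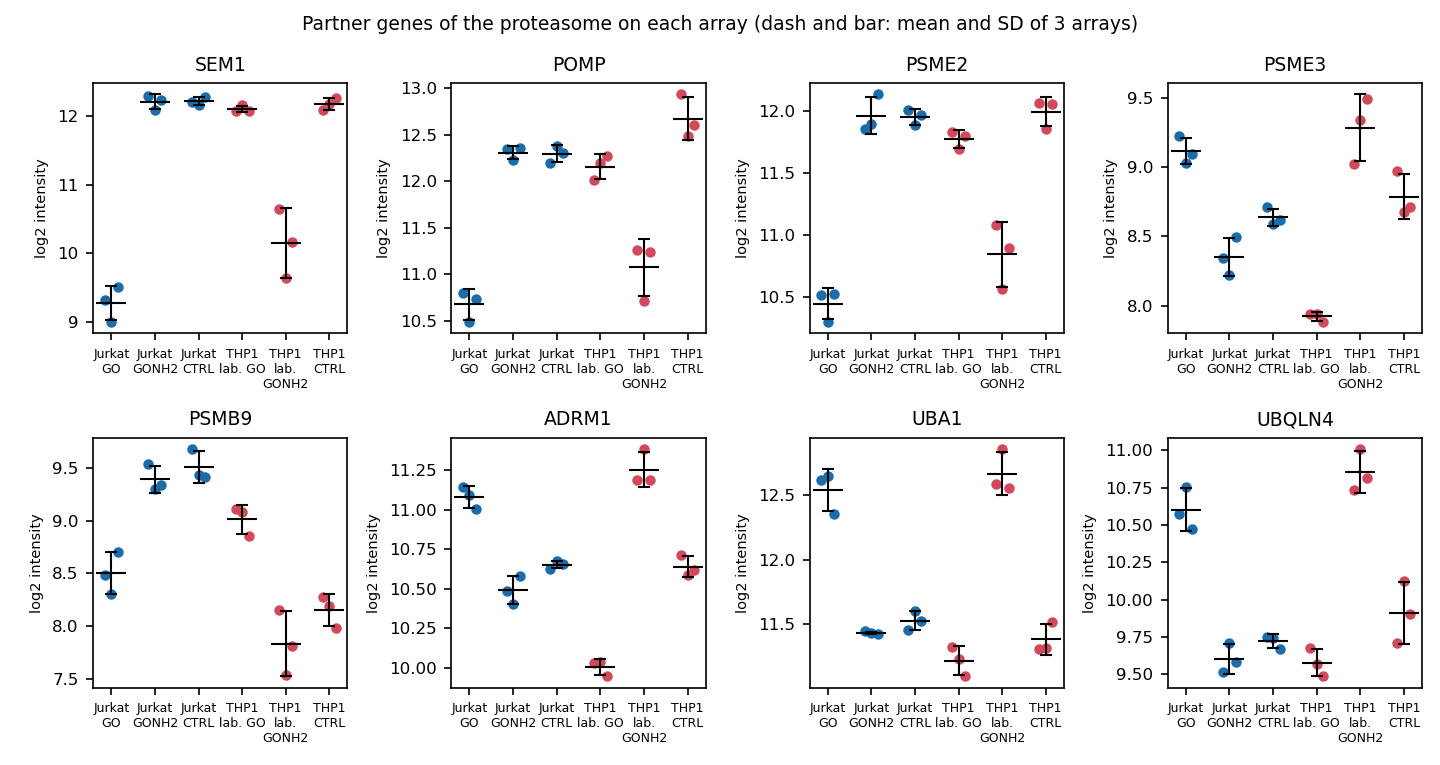
Log2 intensity (y axis, a separate scale in each panel) of 8 partner genes of the proteasome on each of 18 arrays, by group (x axis; THP1 groups by their labels), with the mean and SD of 3 arrays. SEM1 lies at 9.50 or below on the Jurkat GO arrays, between 9.64 and 10.65 on the THP1 arrays labelled GONH2 and above 12 on the other 12 arrays.

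Of the 34 genes, 11 had several tested probes, and a gene was represented by its brightest probe. In Jurkat GO the probes of 8 of the 11 had changes of 1 sign, and in THP1 labelled GONH2 those of 9. No gene had probes called in opposite directions in these 2 comparisons or in the other 4 of treated groups (0 in each). The probes of PSMA1, PSMC4 and PSMD4 differed in sign in Jurkat GO, and those of PSMA1 and PSMC4 in THP1 labelled GONH2. The dimmest PSMA1 probe had changes of 0.53 in Jurkat GO and 0.45 in THP1 labelled GONH2, against -0.10 and -0.29 for its brightest. Signs also differed for PSMA6, PSMC1, PSMC6 and PSMD6 in THP1 labelled GO, for PSMA1, PSMC4, PSMC6 and PSMD4 in Jurkat GONH2 against Jurkat GO, and for PSMA4, PSMC4, PSMC6, PSMD4, PSMD6 and PSMD10 in Jurkat GONH2, where no probe was called. Both probes of PSMA3, PSMA4 and PSMG1 were called lower in Jurkat GO, and 2 of the 3 probes of PSMD10.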

How the data were processed

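RNA of the 18 samples had been labelled and hybridized to Illumina HumanHT-12 v4 arrays. The intensities deposited by the authors are probe signals from GenomeStudio on the linear scale, in a table without normalization and in a second table that the authors had normalized by a kind not given in the sources used here. The deposited detection p-values compare each probe with negative controls.

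The unnormalized signals were corrected for background from the detection p-values with limma 3.58.1 in R 4.3.3 (offset 16), brought to common quantiles across the 18 arrays and put on the log2 scale. Median signals of the arrays ran from 103 to 150 before this. Probes entered the tests when 3 or more arrays detected them (p under 0.01). Symbols came from the platform annotation, updated by gene ID, and each gene was represented by its probe with the highest mean. Each pair of groups was fitted on its 6 arrays with limma's moderated test, and differences between lines by an interaction term over 12 arrays. The fit was tested on simulated data with known changes. With 3 arrays per group, their number limits precision.

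The proteasome genes, the list of partner genes and the rules for naming genes were chosen with earlier results of these data known. Values on every array were given for PSMB5, PSMB6, PSMB7, PSMD14, PSMD4, PSMG1 to PSMG4 and, per comparison, the called gene of each class with the largest rise and fall. Up to 4 called partner genes were named per comparison. PSMA3, PSMA4, PSMB4, PSMC6, PSMD10 and PSMD12 were named in counts of calls, and PSMD8 and PSMD1 in Jurkat GONH2 for their estimates. Alternatives were no background correction, an offset of 50, the authors' normalized values, median scaling over probes detected on all arrays, no filter, detection on all 18 arrays, 1 fit of 18 arrays, limma-trend, a replicate block, the random variance test, an adjusted p alone, the mean of a gene's probes, exchanged THP1 labels and leaving out each array. Columns of group comparisons by the authors were not used as results. Promoter windows came from RefSeq (GRCh38.p14).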

Additional observations from a re-analysis of the deposited data

Results flagged for a closer look

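Differences between the lines in the response of a proteasome gene, each passing limma's interaction test, were set apart because the same treatment label gave unequal changes. For GO by the labels there were 9 (log2, Jurkat response minus THP1 response, n = 3 arrays per group). They were -0.80 for PSMA2, -0.61 for PSMA4, -0.68 for PSMB3, -0.72 for PSMB7, -1.15 for PSMD10 and -1.60 for PSMG4, all lower in Jurkat cultures, and 0.99 for PSMD1, 1.12 for PSMD2 and 1.24 for PSMD3, higher in Jurkat cultures. For GONH2 by the labels there were 7, all higher in Jurkat cultures: 1.16 for PSMA3, 0.74 for PSMB7, 1.00 for PSMC2, 0.87 for PSMC6, 0.84 for PSMD10, 0.78 for PSMD14 and 1.29 for PSMG4. With the THP1 treated labels exchanged, limma called 0 and 2 genes. The part of the labels in these differences was not tested otherwise.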

How the results depend on the processing

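Counts of called proteasome genes depended on the processing. Of 55 named gene results under 1038 alternatives, 960 kept direction and call, 78 lost the call and 0 reversed. All 55 were picked because they were called in the main fit, and they were refitted on the same arrays. The lack of reversals is therefore not read as evidence on directions. The calls of PSMG4 in 4 comparisons, of PSMA2 and PSMB7 in Jurkat cultures and of SEM1 and POMP in each comparison where they are named were among those kept throughout. The cause of the shifts below was not tested. Apart from exchanged labels, the share of all tested genes called was not computed under these alternatives. Changed counts of calls are therefore not read as particular to the proteasome genes.

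In Jurkat GO against Jurkat CTRL, 10 calls became 17 without background correction, 17 on the authors' normalized values, 17 under median scaling, 16 with limma-trend and 19 by adjusted p alone, and 6 to 8 without 1 array. The median of -0.33 became -0.25 without background correction, -0.27 with an offset of 50, -0.25 on the authors' values, -0.56 under median scaling and -0.26 with no filter. In Jurkat GONH2 against Jurkat CTRL, 0 calls became 1 without background correction, 1 on the authors' values and 1 with limma-trend. In THP1 labelled GO, 2 calls became 8 without background correction, 5 with an offset of 50, 8 on the authors' values, 4 with no filter, 5 with detection on all 18 arrays, 5 in 1 fit of 18 arrays, 8 with limma-trend and 9 by adjusted p alone, and 1 to 2 without 1 array. In THP1 labelled GONH2, 11 calls became 19 without background correction, 20 on the authors' values, 18 in the fit of 18 arrays and 21 by adjusted p alone, and 2 to 8 without 1 array, and the median became -0.59 under median scaling.

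In Jurkat GONH2 against Jurkat GO, 9 calls became 15 without background correction, 14 with an offset of 50, 16 on the authors' values, 15 under median scaling, 15 in the fit of 18 arrays, 15 with limma-trend and 17 by adjusted p alone. The median of 0.26 became 0.51 under median scaling and 0.25 to 0.37 without 1 array. In THP1 labelled GONH2 against labelled GO, 7 calls became 19 without background correction, 14 with an offset of 50, 19 on the authors' values, 16 in the fit of 18 arrays, 16 with limma-trend and 25 by adjusted p alone, and 4 to 6 without 1 array. On the authors' values the split there was 5 higher and 14 lower, against 4 and 3.

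For the difference in response to GO, 9 calls became 14 under median scaling and 0 with exchanged labels, and the median of -0.14 became -0.39 under median scaling and -0.21 to -0.10 without 1 array. For GONH2, 7 calls became 15 without background correction, 13 with an offset of 50, 15 on the authors' values, 12 with no filter, 12 with detection on all 18 arrays, 11 in the fit of 18 arrays, 13 with limma-trend, 17 by adjusted p alone, 12 when a gene's probes were averaged and 2 with exchanged labels, and the median of 0.44 became 0.31 to 0.50 without 1 array.

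Replicate numbers were not taken to pair the samples. Correlations of same-numbered arrays ran from -0.07 to 0.16 and exceeded 0.1 for every pair in 0 comparisons. By comparison, 1 to 3 of the 3 numbers correlated best with their own number, so a weak pairing was not excluded. With the replicate number as a block, Jurkat GO had 6 calls in place of 10. In THP1 labelled GONH2 against labelled GO, 2 genes were higher under the block in place of 4. No other total moved by more than 1.5 times under the replicate block, though single calls were lost.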
